A study of Mus musculus with 10 samples.

Results

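The suppressors of cytokine signalling (SOCS) are a family of 8 genes in the mouse, Socs1 to Socs7 and Cish, and all 8 were measured here in cultured neurons given the JNK inhibitor SP600125 or its solvent DMSO. The members were chosen by gene symbol, and they are 8 of the 19938 genes tested. Where several probe sets of the array carried a member's symbol alone, the one with the highest mean over all 10 arrays stood for the gene, so a member's level is a description. The family was taken up with earlier results on the same SP600125 and DMSO arrays known, so the changes below and their adjusted p-values describe where each member lies among all genes and are no independent test of the family.

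SP600125 arrays came from terminally differentiated neurons of a mixed 129Sv-C57Bl/6 strain that received 25 µM of SP600125 in 3 doses spaced 2 hours apart, and DMSO arrays came from the same kind of neurons given DMSO on the same schedule. There were 5 biological replicates per group, lettered a to e, each on its own Affymetrix whole-transcript array. Arrays a and b belong to drug batch 1 and arrays c to e to drug batch 2, a batch being a separate supply of SP600125. Whether the replicates were separate cultures is not stated, so the p-values cover the spread of these samples, and that spread may be technical. Neither the age of the mice nor the way the neurons were made is stated in the labels.

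SOCS proteins are feedback inhibitors. A cytokine or hormone receptor activates Janus kinases (JAK), the kinases phosphorylate STAT transcription factors, and STATs switch on several SOCS genes, whose products bind the receptor or the kinase through an SH2 domain and shut the signal down. At their C-terminal end all members carry a SOCS box, which recruits elongin B, elongin C and Cullin-5 and so marks the bound protein for degradation. In the nervous system they are known for limiting the response of neurons and glia to cytokines of the gp130 family and to growth hormone.

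Arrays correlated with r from 0.987 to 0.992 within SP600125, from 0.990 to 0.993 within DMSO and from 0.976 to 0.990 between the groups, across all 35556 probe sets. Of 10 neuron markers, all lay above a log2 level of 5.43, the 95th percentile of 1015 olfactory receptor genes, which serves as a mark of dim probe sets; 9 of the 10 fell after SP600125 and none rose, with a median change of −0.46 on the log2 scale. After cyclic loess 6 of them fell. Batch 2 arrays alone gave a median of −0.61 and batch 1 arrays alone −0.22. Among all genes with mean levels from 8 to 10 between 64.4% and 66.3% fell. Their median change was −0.24 at levels from 8 to 9 and −0.21 from 9 to 10, smaller falls than the markers' median. Single markers ran from a mean level of 6.55 for Elavl4, where 41.1% of all genes fell, to 10.57 for Stmn2, where 54.5% fell. The mean level of these markers ran from 8.75 to 9.33 on SP600125 arrays and from 9.10 to 9.45 on DMSO arrays. Markers of other cells were also above that mark, 7 of 8 for astrocytes, 6 of 7 for the oligodendrocyte lineage, 7 of 8 for fibroblasts and endothelium and 3 of 9 for microglia and macrophages. Mean levels of astrocyte markers ran from 8.28 to 8.38 on SP600125 arrays and from 8.36 to 8.43 on DMSO arrays, and those of fibroblast and endothelial markers from 8.17 to 8.28 on SP600125 arrays and from 8.40 to 8.54 on DMSO arrays. The cell type behind a SOCS value is thus not known, and fewer cells of a type and less RNA per cell cannot be told apart. Values were also less spread on SP600125 arrays, with an SD over genes of 1.63 to 1.71, against 1.76 to 1.84 on DMSO arrays. The median of the olfactory receptor genes was 3.86 to 3.96 on SP600125 arrays and 3.59 to 3.76 on DMSO arrays. The part of this difference between the arrays in the falls of bright markers was not tested. Precision is limited by the number of arrays.

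Socs2 was 1.64-fold higher after SP600125, Socs5 and Socs7 were about 0.86 and 0.85 of their DMSO level, and Socs1, Socs3, Socs4, Socs6 and Cish did not pass the threshold, a Benjamini-Hochberg adjusted p under 0.05 in limma over all 19938 genes with drug batch as a term. Thus 3 of the 8 members passed, 1 upward and 2 downward, where 46.9% of all genes passed, 17% upward and 29.9% downward. The median change was −0.16 on the log2 scale over the 8 members and −0.03 over all genes tested.

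**Figure D1:**
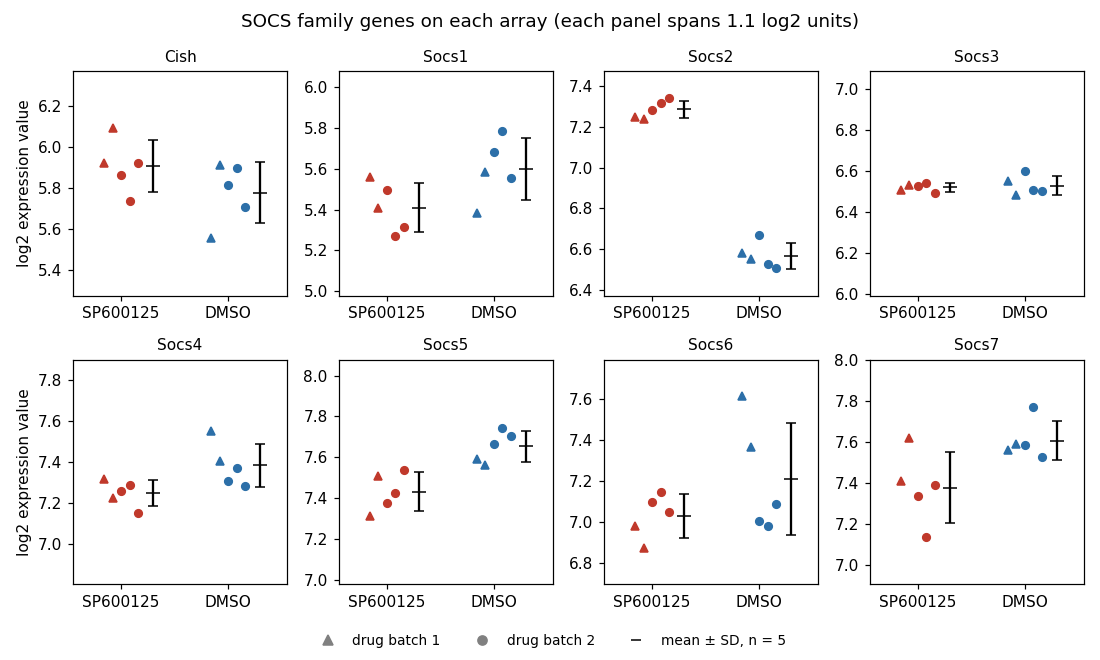
Log2 expression values of the 8 SOCS family genes on each array, with SP600125 left and DMSO right in every panel, triangles for drug batch 1, circles for drug batch 2, and bars for the mean ± SD (n = 5). The groups are apart for Socs2 (7.24 to 7.34 on SP600125 arrays, 6.51 to 6.67 on DMSO arrays) and, by less, for Socs5, and they overlap for the other 6 genes.

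Socs2 encodes the member best known for restraining growth hormone signalling, and mice without it grow to giant size. Its log2 values were 7.25, 7.24, 7.28, 7.32 and 7.34 on SP600125 arrays a to e, against 6.58, 6.55, 6.67, 6.53 and 6.51 on DMSO arrays a to e. All SP600125 arrays lay above all DMSO arrays, and the gap between the groups was wider than the range within either. The change was 0.72 (SE 0.06, 95% interval 0.59 to 0.84, n = 5 per group, limma adjusted p = 1.11e-05). It was rank 28 among the rises of all genes. Of all genes, 0.577% passed with a rise of at least 1.5-fold, and 6.65% had every SP600125 array above every DMSO array. Socs2 had a mean level between 6 and 7, and among the 3833 genes in that range 7.23% rose and 41.1% fell, with a median change of −0.14. Socs2 was thus opposite in sign to the median change of its level. In drug batch 2 the change was 0.74 and in drug batch 1 it was 0.67.

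A second probe set of Socs2, which shares 4 transcript accessions with the one used, showed the same direction with a smaller size. Its values were 6.50, 6.51, 6.80, 6.60 and 6.45 on SP600125 arrays a to e, against 6.12, 6.25, 6.31, 6.14 and 6.13 on DMSO arrays a to e. These groups did not overlap either. The change was 0.38 (SE 0.08, limma adjusted p = 0.00419 over all probe sets), smaller than that of the probe set used, and the mean of both probe sets changed by 0.55 (limma adjusted p = 6.53e-05).

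Cish is the closest relative of Socs2 and binds STAT5-activating receptors such as those of erythropoietin and growth hormone. It is a standard readout of STAT5, and the letters TTCNNNGAA, those of the STAT element, occur 2 times at its start site. The stretch is shown because it holds these matches, which are in capitals. It lies at chr9:107296654-107296683 on the plus strand of GRCm38.p6, from base −5 to base 25 around the RefSeq start site.
Cish: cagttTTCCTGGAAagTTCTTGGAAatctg
The values of Cish were 5.92, 6.09, 5.86, 5.73 and 5.92 on SP600125 arrays a to e, against 5.55, 5.91, 5.81, 5.90 and 5.71 on DMSO arrays a to e. SP600125 replicates a, b and e lay above every DMSO array, a and e narrowly, and replicates c and d lay within the DMSO range. The change was 0.13 (SE 0.08, 95% interval −0.05 to 0.31, limma adjusted p = 0.206). This interval ends below that of Socs2, which starts at 0.59. The size for Cish varied with the arrays and the scaling used, at 0.03 within batch 2, 0.28 within batch 1, 0.05 without DMSO replicate a, 0.08 without SP600125 replicate b, 0.03 after median centring and 0.06 after quantile normalization, and it passed in none of these.

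Socs1 and Socs3 are the members that inhibit JAK directly, through a short kinase inhibitory region. Socs3 is the main brake on gp130 and leptin receptors, and in mouse its loss from neurons is known to favour axon regrowth. Its upstream region holds 1 STAT element, 154 bases before the start site, shown here in capitals for comparison with that of Cish, from the minus strand of GRCm38.p6 at chr11:117969502-117969531.
Socs3: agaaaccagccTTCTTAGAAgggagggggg
Socs3 had the smallest SD of the 8 members in both groups, at 0.02 on SP600125 arrays and 0.05 on DMSO arrays (n = 5 each). Its values were 6.51, 6.53, 6.53, 6.54 and 6.49 on SP600125 arrays a to e, against 6.55, 6.48, 6.60, 6.51 and 6.50 on DMSO arrays a to e. The SP600125 arrays lay within the range of the DMSO arrays. The change was −0.01 (SE 0.05, limma adjusted p = 0.912), and the 95% interval from −0.12 to 0.11 limits any change to well under that of Socs2. A second, dimmer probe set of Socs3, which rests on 1 accession, moved by 0.10 (SE 0.10, limma adjusted p = 0.469 over all probe sets), with overlapping groups.

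Socs1, the strongest JAK inhibitor of the family and a brake on interferon signals, was dim, with a mean level of 5.50 just above the mark of 5.43. Its values were 5.56, 5.41, 5.49, 5.27 and 5.31 on SP600125 arrays a to e, against 5.38, 5.58, 5.68, 5.79 and 5.55 on DMSO arrays a to e. The groups overlapped through both a arrays, and the other 4 SP600125 arrays lay below the other 4 DMSO arrays. The change was −0.19 (SE 0.08, limma adjusted p = 0.0734), with −0.31 in drug batch 2 and 0.00 in drug batch 1. It passed after each of the 3 other scalings of the arrays, at −0.30 after quantile normalization (limma adjusted p = 0.00866), −0.29 after centring each array on its median (limma adjusted p = 0.00516) and −0.28 after cyclic loess (limma adjusted p = 0.0135). It also passed without SP600125 replicate a (−0.24, limma adjusted p = 0.0356) and without DMSO replicate a (−0.25, limma adjusted p = 0.0263).

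RefSeq promoter windows, which span 250 bases before to 50 after the start in GRCm38.p6, were read for 4 members. Of these, Cish and Socs3 held TTCNNNGAA and Socs1 and Socs4 did not. The element, which reads the same on both strands, was in 8.3% of 32851 such windows. None of the 4 held TGANTCA, the AP-1 motif, on either strand, against 7.81% of windows. The NF-Y letters CCAAT, read on both strands, occurred in Cish and Socs1 and in 37.4% of windows, and the core letters of the aryl hydrocarbon receptor motif, GCGTG, occurred in Socs4, on the opposite strand, and in 32.4% of windows. No pair of these motifs overlapped in the 4 windows. A match is a description of the letters and not a binding site.

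Socs4 and Socs5 share a long N-terminal region and are known to act on the epidermal growth factor receptor. Socs5 had values of 7.31, 7.51, 7.38, 7.43 and 7.54 on SP600125 arrays a to e, against 7.59, 7.56, 7.66, 7.75 and 7.71 on DMSO arrays a to e. Every SP600125 array lay below every DMSO array, as for 16.4% of all genes. The change was −0.22 (SE 0.06, limma adjusted p = 0.0107). Genes with mean levels between 7 and 8 had a median change of −0.22, and 60.6% of them fell, so the fall of Socs5 had the size common at its level. It was −0.09 after quantile normalization (limma adjusted p = 0.235) and −0.04 after cyclic loess (limma adjusted p = 0.641), and passed neither time.

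Socs4 ran from 7.15 to 7.32 on SP600125 arrays, with a median of 7.26, and from 7.29 to 7.55 on DMSO arrays, with a median of 7.37. The groups overlapped at their edges. The change was −0.14 (SE 0.06, 95% interval −0.27 to −0.00, limma adjusted p = 0.0818). It was −0.24 after median centring, where it passed (limma adjusted p = 0.00755), and 0.03 after cyclic loess (limma adjusted p = 0.74).

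Socs6 and Socs7 bind insulin receptor substrates, and Socs7 also binds the adaptor Nck. Socs7 had values of 7.41, 7.62, 7.34, 7.14 and 7.39 on SP600125 arrays a to e, against 7.56, 7.59, 7.58, 7.77 and 7.53 on DMSO arrays a to e. SP600125 replicate b lay among the DMSO arrays, and the other 4 lay below all of them. The change was −0.23 (SE 0.08, limma adjusted p = 0.0311), about the size of the median of its level. The call ended after quantile normalization (−0.10, limma adjusted p = 0.327) and cyclic loess (−0.05, limma adjusted p = 0.64). It also ended without SP600125 replicate a, c or d and without DMSO replicate c or d, with changes from −0.23 to −0.17 and an adjusted p of up to 0.0892 from limma.

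Socs6 differed between its probe sets. On the one used, the values were 6.98, 6.87, 7.10, 7.15 and 7.05 on SP600125 arrays a to e, against 7.61, 7.37, 7.002, 6.98 and 7.09 on DMSO arrays a to e. DMSO replicates a and b, both of drug batch 1, lay above all other arrays, and the groups overlapped in drug batch 2. The change was −0.18 (SE 0.10, limma adjusted p = 0.163), with 0.07 in drug batch 2 and −0.57 in drug batch 1. A second probe set, listed with the same 5 accessions, had values of 6.96, 6.97, 6.82, 6.97 and 6.97 on SP600125 arrays a to e, against 7.17, 7.14, 7.15, 7.18 and 7.11 on DMSO arrays a to e. Here the groups did not overlap in either batch, the DMSO a and b arrays did not stand apart, and the change was −0.21 (SE 0.05, limma adjusted p = 0.0109 over all probe sets). Another probe set, resting on 1 accession, was dim, with a mean of 2.78 ± 0.07 (SD, n = 5) on SP600125 arrays and of 2.76 ± 0.05 (SD, n = 5) on DMSO arrays. The separation of the groups thus depended on which of the brighter probe sets was read.

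**Figure D2:**
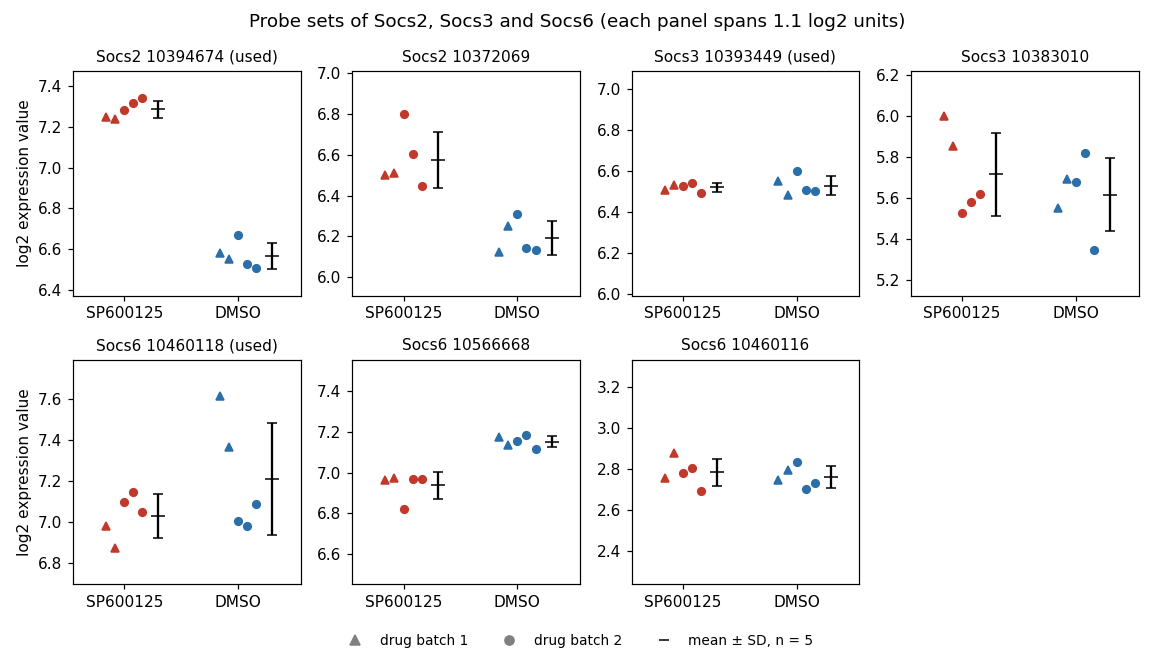
Log2 expression values of every probe set that carries the symbol Socs2, Socs3 or Socs6 alone, by array, with SP600125 left and DMSO right, triangles for drug batch 1, circles for drug batch 2 and bars for the mean ± SD (n = 5). Both Socs2 probe sets are higher on all SP600125 arrays, and the high DMSO values of 7.61 and 7.37 appear on 1 of the 3 Socs6 probe sets.

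Drug batch played no part in choosing the members, so its terms are tests. The treatment by batch interaction passed for none of the 8 members and for none of the 19938 genes (limma, 0% called), while 9.29% of genes and 1 member, Socs6, had an unadjusted p under 0.05. For Socs6 the response in batch 2 minus that in batch 1 was 0.64 (SE 0.13, limma adjusted p = 0.386). For Socs2 it was 0.07 (95% interval −0.18 to 0.32, limma adjusted p = 0.88). Between batch 2 and batch 1 arrays, none of the 8 members passed, where 0.722% of all genes did, and member differences ran from −0.15 for Socs6 (limma adjusted p = 0.587) to 0.08 for Socs5 (limma adjusted p = 0.619). At an unadjusted p under 0.05, 0 members and 13.9% of genes passed this comparison. In drug batch 1 alone, with 2 arrays per group, limma called 1 gene of 19938 and none of the members, and Socs2 had an adjusted p of 0.102 there.

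The scaling of the arrays set how many members were called. Centring each array on its median moved the median change of all genes to −0.13, and 6 members passed, 1 upward and 5 downward. Quantile normalization and cyclic loess each gave 2 calls, Socs2 upward and Socs1 downward. Socs2 was 0.80 after quantile normalization, 0.62 after median centring and 0.85 after cyclic loess, with a limma adjusted p of at most 9.84e-06. Socs2 was the one member that passed in the same direction under the deposited values and these 3 scalings.

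**Figure D3:**
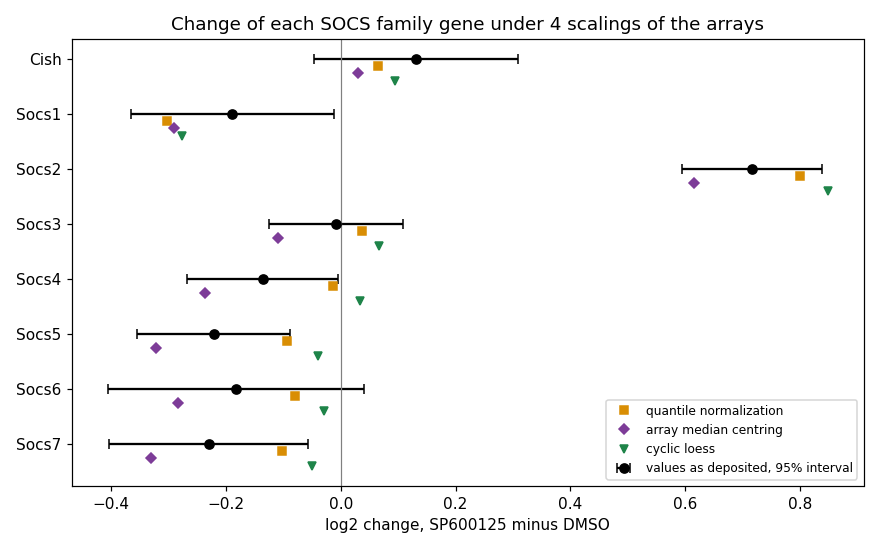
Log2 change, SP600125 minus DMSO, of each SOCS family gene, with the deposited values and their 95% interval as black points and the changes after 3 other scalings as coloured marks below each. Socs2 lies between 0.62 and 0.85 under all 4, while Socs4, Socs5, Socs6 and Socs7 lie near 0 after cyclic loess.

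The rest of the pathway was read from lists chosen by function, and their counts are to be set against 17% of all genes that rose and 29.9% that fell, with a median change of −0.03. The scaling moved this background too. Of all genes, 7.51% rose and 22.5% fell after quantile normalization, 7.52% rose and 43.1% fell after median centring, and 9.44% rose and 17.7% fell after cyclic loess.

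Of 12 ligands that signal through class I receptors, 4 rose, none fell and 8 did not pass, with a median change of 0.18. Each of the 3 other scalings left 1 rise, and quantile normalization and cyclic loess added 1 fall. All but Il6 had mean levels from 3 to 6, where between 25.2% and 36.2% of all genes rose. Median changes of all genes there were 0.08 to 0.15, so the count of rises was near the share at these levels. Gh, growth hormone, had values of 5.63, 5.56, 5.74, 5.597 and 5.97 on SP600125 arrays a to e, against 5.25, 5.21, 5.44, 5.36 and 5.17 on DMSO arrays a to e, and rose by 0.41 (SE 0.08, limma adjusted p = 0.00103). The groups did not overlap. Lif rose by 0.33 (SE 0.12, limma adjusted p = 0.0397), Csf2 by 0.25 (SE 0.08, limma adjusted p = 0.0182) and Epo, erythropoietin, by 0.21 (SE 0.08, limma adjusted p = 0.0469). These rises were from dim levels, since 2 of the 12 ligands lay above the mark of 5.43, and Lif, Csf2 and Epo lost their calls under each of the 3 other scalings. Gh kept its call, at 0.30 to 0.32.

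Of 15 cytokine receptors, 2 rose, 2 fell and 11 did not pass, with a median change of −0.12. There were 2 rises and 5 falls after quantile normalization, 1 rise and 9 falls after median centring, and 2 rises and 3 falls after cyclic loess. Csf3r, the granulocyte colony-stimulating factor receptor, rose by 0.46 (SE 0.08, limma adjusted p = 0.000694) from a dim mean of 3.99 after DMSO, and Epor by 0.33 (SE 0.13, limma adjusted p = 0.0459), a call lost under each other scaling. Ifngr2, a chain of the interferon gamma receptor, fell by 0.43 (SE 0.07, limma adjusted p = 0.000694). Cntfr, which gives neurons their response to ciliary neurotrophic factor, fell by 0.37 (SE 0.08, limma adjusted p = 0.00343), and did not pass after cyclic loess (−0.18, limma adjusted p = 0.0716). Il6st, which encodes gp130, was at 0.15 (limma adjusted p = 0.0674) and passed after quantile normalization (0.25, limma adjusted p = 0.00851) and cyclic loess (0.31, limma adjusted p = 0.00345), and its partner Lifr was at −0.00 (SE 0.07, limma adjusted p = 0.975).

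Of 9 Janus kinases and STATs, 1 rose, 2 fell and 6 did not pass, with a median change of 0.04. Median centring gave 4 falls and no rise, and cyclic loess 1 rise and no fall. Jak1, the kinase most used by gp130 receptors, had values of 8.99, 9.24, 9.03, 8.90 and 8.95 on SP600125 arrays a to e, against 9.36, 9.16, 9.35, 9.31 and 9.36 on DMSO arrays a to e. The b arrays ran against the rest. Jak1 fell by 0.29 (SE 0.07, limma adjusted p = 0.00607) and Stat2 by 0.26 (SE 0.06, limma adjusted p = 0.0049), neither passing after cyclic loess (adjusted p of 0.115 for Jak1 and 0.103 for Stat2), and Stat6 rose by 0.20 (SE 0.06, limma adjusted p = 0.0203), a call lost under each other scaling. The kinase of the growth hormone receptor, Jak2, was at 0.04 (limma adjusted p = 0.611) and passed after quantile normalization (0.17, limma adjusted p = 0.0374) and cyclic loess (0.23, limma adjusted p = 0.013), but was at −0.06 after median centring. Stat5a and Stat5b, which growth hormone activates, were at 0.09 (SE 0.07, limma adjusted p = 0.284) and −0.11 (SE 0.06, limma adjusted p = 0.154). Stat3 was at −0.13 (SE 0.06, limma adjusted p = 0.0918) and Tyk2 at 0.14 (SE 0.09, limma adjusted p = 0.193). Stat5b (−0.21, limma adjusted p = 0.0109) and Stat3 (−0.23, limma adjusted p = 0.00752) passed after median centring. Stat3 also passed without SP600125 replicate b (−0.17, limma adjusted p = 0.03) and without both b arrays (−0.17, limma adjusted p = 0.0363), and turned to 0.02 after cyclic loess.

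**Figure D4:**
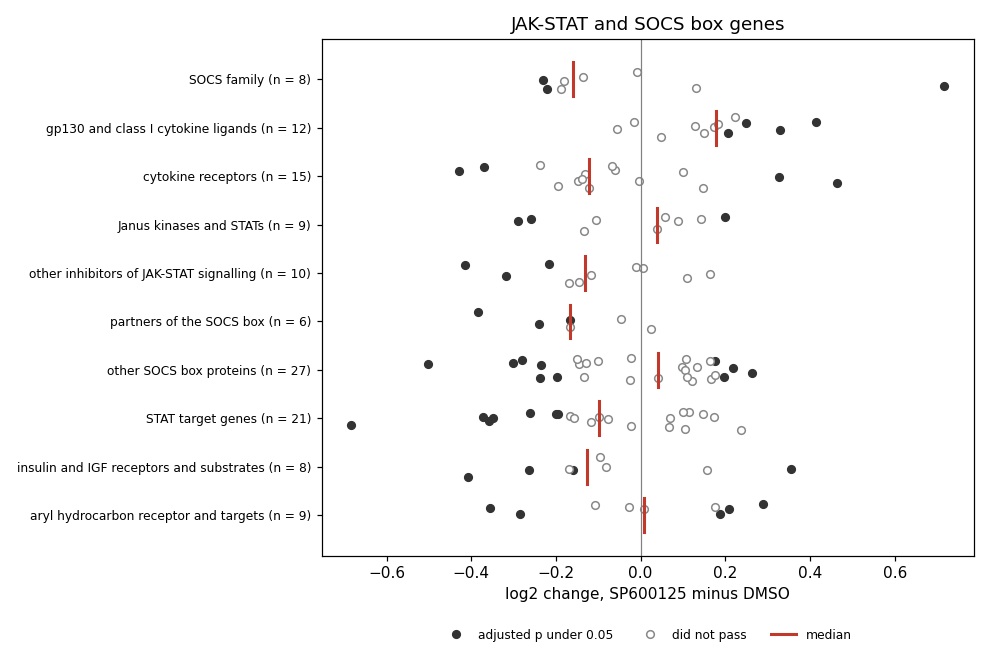
Log2 change, SP600125 minus DMSO, of each measured gene of the SOCS family and 9 lists of related genes, filled where the adjusted p was under 0.05 and open where it was not, with a bar for each list's median. Socs2 at 0.72 lies to the right of every other gene shown, and Ccnd2 at −0.68 to the left.

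Of 10 other inhibitors of the pathway, 3 fell and none rose, with a median change of −0.13. The count of falls was near the share of genes over all levels. Most of these inhibitors had mean levels from 6 to 9, where the share was higher, between 41.1% and 66.3%. Median centring gave 6 falls, and cyclic loess 1 rise and 1 fall. Ptpn1, a phosphatase that acts on JAK2 and the insulin and leptin receptors, fell by 0.41 (SE 0.08, limma adjusted p = 0.000974), Ptpn2, its nuclear relative, by 0.32 (SE 0.08, limma adjusted p = 0.00488) and Pias3, an inhibitor of STAT3, by 0.22 (SE 0.08, limma adjusted p = 0.047). Of these Ptpn1 alone still passed after cyclic loess (−0.24, limma adjusted p = 0.0225).

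Of 6 partners that the SOCS box recruits, 3 fell and none rose, with a median change of −0.17. Median centring gave 4 falls, and quantile normalization and cyclic loess each gave 1 rise and 1 fall. Cul5, the cullin of the complex, had values of 7.64, 7.69, 7.69, 7.68 and 7.62 on SP600125 arrays a to e, against 8.18, 7.90, 8.06, 8.01 and 8.08 on DMSO arrays a to e. The groups did not overlap, and it fell by 0.38 (SE 0.06, limma adjusted p = 0.000524). The elongins Elob and Eloc fell by 0.24 (SE 0.07, limma adjusted p = 0.0181) and 0.17 (SE 0.06, limma adjusted p = 0.0337), and neither passed after quantile normalization or cyclic loess. Of 27 other proteins with a SOCS box, 4 rose, 6 fell and 17 did not pass, with a median change of 0.04. There were no rises and 5 falls after quantile normalization, 1 rise and 11 falls after median centring, and 1 rise and 3 falls after cyclic loess. Wsb2 fell by 0.50 (SE 0.08, limma adjusted p = 0.000607), Asb7 by 0.30 (SE 0.09, limma adjusted p = 0.0112) and Spsb3 by 0.28 (SE 0.08, limma adjusted p = 0.0121), while Asb10 rose by 0.26 (SE 0.06, limma adjusted p = 0.00325) but did not pass after quantile normalization or cyclic loess.

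Of 21 genes known as STAT targets in other tissues, 7 fell, none rose and 14 did not pass, with a median change of −0.10. The count of falls was near the share of genes taken over all levels. Ccnd2, cyclin D2, had values of 9.58, 9.67, 9.72, 9.54 and 9.66 on SP600125 arrays a to e, against 10.33, 10.32, 10.33, 10.29 and 10.32 on DMSO arrays a to e. It fell by 0.68 (SE 0.06, limma adjusted p = 1.56e-05), nearly as far as Socs2 rose. Igf1, the growth factor that growth hormone induces through STAT5, had values of 7.07, 7.16, 7.19, 7.14 and 7.20 on SP600125 arrays a to e, against 7.54, 7.61, 7.48, 7.50 and 7.50 on DMSO arrays a to e. It fell by 0.37 (SE 0.06, limma adjusted p = 0.000358), with groups that did not overlap, opposite in direction to Socs2. A fall was common at its mean level of 7.34, since 60.6% of genes with levels from 7 to 8 fell, with a median change of −0.22. Gfap, an astrocyte filament that STAT3 induces, fell by 0.36 (SE 0.06, limma adjusted p = 0.000877) and Bcl2l1, a survival gene, by 0.35 (SE 0.06, limma adjusted p = 0.000825). These 4 falls also passed under each of the 3 other scalings. Over the list, quantile normalization gave 6 falls, median centring 11 falls, and cyclic loess 1 rise and 6 falls.

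Socs2, Socs6 and Socs7 are known to bind some of the insulin and IGF receptors and their substrates. Of 8 genes for these receptors, substrates and adaptors, 1 rose and 3 fell, with a median change of −0.13. Median centring gave 1 rise and 6 falls, and quantile normalization and cyclic loess each gave 1 rise and 1 fall. Irs2, an insulin receptor substrate, had values of 7.35, 7.66, 7.50, 7.53 and 7.38 on SP600125 arrays a to e, against 7.08, 7.19, 7.10, 7.06 and 7.22 on DMSO arrays a to e, without overlap, and rose by 0.35 (SE 0.07, limma adjusted p = 0.00155). The adaptor Shc1 fell by 0.41 (SE 0.08, limma adjusted p = 0.00163), Grb10 by 0.26 (SE 0.06, limma adjusted p = 0.00203) and the receptor Igf1r by 0.16 (SE 0.06, limma adjusted p = 0.0324). Irs2 and Shc1 passed under each other scaling, while Grb10 and Igf1r did not pass after quantile normalization or cyclic loess, where Igf1r turned to 0.02.

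Socs2 is also known in mouse cells as a gene that dioxin, a ligand of the aryl hydrocarbon receptor (AHR), induces. Of 9 genes of that receptor and its targets, 3 rose, 2 fell and 4 did not pass, with a median change of 0.01. There was 1 rise and 2 falls after quantile normalization, no rise and 3 falls after median centring, and 2 rises and 2 falls after cyclic loess. Tiparp, an AHR-induced repressor, rose by 0.21 (SE 0.07, limma adjusted p = 0.0268) but did not pass after median centring (0.11), and Cyp1a2 rose by 0.29 (SE 0.09, limma adjusted p = 0.0216) from a dim 3.66 after DMSO, a call lost under each other scaling. The other rise was Ahrr, the receptor's repressor, at 0.19 (SE 0.07, limma adjusted p = 0.0308), with dim means of 3.79 on SP600125 arrays and 3.602 on DMSO arrays. It is named because its rise completes the count, after its values were seen. Nqo1 fell by 0.36 (SE 0.09, limma adjusted p = 0.00718) and Ahr by 0.28 (SE 0.07, limma adjusted p = 0.00451). The standard targets Cyp1a1 (0.01, SE 0.08, limma adjusted p = 0.934) and Cyp1b1 (−0.03, SE 0.06, limma adjusted p = 0.711) did not pass, although Cyp1b1 turned to 0.16 and passed after cyclic loess (limma adjusted p = 0.0406). Cyp1a1, with a mean level of 3.94, and Nqo1, with 4.49, were also dim, below the mark of 5.43. The flat value of Cyp1a1 thus says little. The part of AHR in the rise of Socs2 was not tested.

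Several of the calls on these related genes rested on single arrays. The call of Elob ended without SP600125 replicate d (−0.19), that of Stat6 without SP600125 replicate a or e or DMSO replicate a (0.18 each time), and that of Cyp1a2 without SP600125 replicate a or DMSO replicate a or e (0.23 to 0.26). That of Igf1r ended without SP600125 replicate a or d or DMSO replicate a, d or e (−0.15 to −0.14), that of Eloc without SP600125 replicate a or d or DMSO replicate a, b, c or e (−0.17 to −0.13), and that of Tiparp without replicate b or e of either group, SP600125 replicate c or DMSO replicate d (0.15 to 0.20). For the calls closest to the threshold most arrays counted. Lif passed only without SP600125 replicate e or DMSO replicate b or c, Epor only without SP600125 replicate e or DMSO replicate c or d, Pias3 only without SP600125 replicate b or c or DMSO replicate d, and Epo only without SP600125 replicate d or DMSO replicate c. Where the call ended, the changes were 0.26 to 0.35 for Lif, 0.22 to 0.34 for Epor, −0.24 to −0.15 for Pias3 and 0.16 to 0.23 for Epo, so the directions held. The other named genes of these lists that passed, Gh, Igf1, Ccnd2 and Cul5 among them, did so with each of the 10 arrays left out in turn.

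Likeness to Socs2 was ranked without the other SOCS members and without genes of predicted, clone-based, microRNA, olfactory or vomeronasal names. Among the genes left, those whose values followed Socs2 most closely over the 10 arrays were Apcdd1, a Wnt inhibitor (Pearson r = 0.98), Slc19a1, the reduced folate carrier (0.98), Svs4, a seminal vesicle secretory gene (0.98), Hey1, a Notch target (0.97), and Selplg, a selectin ligand (0.96). The arrays fall into 2 clusters by treatment for these genes, so r carries the shared difference between the groups. Their changes were 0.53 for Apcdd1, 0.69 for Slc19a1, 0.41 for Svs4, 0.31 for Hey1 and 0.58 for Selplg. After treatment and batch were taken out, r ran from −0.44 for Svs4 to 0.72 for Selplg.

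Marker genes of other cells were read beside Socs2, and their counts are to be set against the shares of all genes at their levels. Of 9 microglia and macrophage markers, 3 rose and none fell, with 3 of the 9 above the dim mark, and 1 rose after each of the 3 other scalings. Among all genes with mean levels from 3 to 5, between 25.2% and 36.2% rose. The mean level of these markers ran from 4.65 to 4.81 on SP600125 arrays and from 4.49 to 4.64 on DMSO arrays. Of 7 pluripotency markers, 3 rose, none fell and 4 did not pass, with 3 of the 7 above the dim mark. Their mean level ran from 5.27 to 5.38 on SP600125 arrays and from 4.92 to 5.28 on DMSO arrays. Each other scaling also gave 3 rises, where between 7.51% and 9.44% of all genes rose. On the deposited values the largest rise of the list was that of Dppa5a, at a mean level of 6.30. It rose by 0.72 (SE 0.09, limma adjusted p = 0.000134) and had rank 27 among the rises of all genes, beside Socs2 at rank 28. Among all genes, between 25.2% and 36.2% rose at mean levels from 3 to 6, and 7.23% at levels from 6 to 7. Of 8 astrocyte markers 1 rose and 4 fell. There was 1 rise and 2 falls among them after quantile normalization, 4 falls after median centring, and 2 rises and 2 falls after cyclic loess. Of 7 oligodendrocyte lineage markers 4 fell (6 after median centring, 2 after cyclic loess). Of 8 fibroblast and endothelial markers 4 fell (5 after median centring). The mean levels of these lists lay between 7 and 9, where between 60.6% and 66.3% of all genes fell. Single genes of these lists, however, ran from a mean level of 4.8 for Pecam1 to 10.8 for Col3a1. Of all genes, 3.22% fell at levels from 4 to 5 and 54.5% at levels from 10 to 11, there with a median change of −0.17. The fibroblast markers at levels from 10 to 11 changed by −0.69 (Col1a1), −0.61 (Col1a2), −0.43 (Col3a1) and 0.01 (Dcn). The mean level of the oligodendrocyte lineage markers ran from 7.26 to 7.33 on SP600125 arrays and from 7.47 to 7.52 on DMSO arrays. No marker was at 0, since array values have a background. The part of these cells in the change of Socs2 was not tested.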

How the data were processed

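RNA from 5 SP600125-treated and 5 DMSO-treated samples of mouse neurons was hybridised to Affymetrix whole-transcript arrays, 1 per sample. The authors deposited log2 expression values for 35556 probe sets, and the submitters' processing notes name oligo 1.14.0. How background was corrected, arrays were normalized and probes were summarized is not stated, and the log2 scale was read from the values. Such values compress changes of dim probe sets.

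Names came from the platform annotation, which can be old: 21789 probe sets carried 1 symbol, 1621 several and 12146 none there. Each gene took its probe set with the highest mean, giving 19938 genes, 999 of them with several probe sets. limma 3.58.1 in R 4.3.3 (lmFit, eBayes, two-sided) was fitted to all genes with treatment and drug batch as terms and 7 residual degrees of freedom. P-values were Benjamini-Hochberg adjusted over all genes, with 0.05 as the threshold. Each change is the SP600125 mean minus the DMSO mean, with limma's moderated SE. The fit was tested on simulated data. Members and lists were chosen with earlier results of these data known. The genes named were the 8 members, up to 4 of the largest called changes of each list (or its largest change), 10 fixed pathway genes and the 5 genes closest to Socs2 in the ranking described above. Ahrr and, apart from Gfap, the cell markers named were added after their values were seen. Alternatives changed the scaling, the dim filter, the probe set rule, the variance model, the batch term, the adjustment or the arrays used.

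Promoter sequences were RefSeq's (GRCm38.p6), matched by symbol and read for 4 of the 8 members. The array's genome build is unknown here, so gene positions are left out.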

Additional observations from a re-analysis of the deposited data

Results flagged for a closer look

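Across 50 genes named above, in 2 groups each, 5 arrays lay far from the other 4 of their group by Dixon's criterion (0.71 for 5 samples), a criterion that chance meets in about 1 of 20 groups. Socs7 was 7.77 on DMSO replicate d, against 7.53 to 7.59 on the others. Gfap was 8.25 on SP600125 replicate b, against 7.87 to 7.94 on the others. Jak2 was 8.0003 on SP600125 replicate c, against 7.80 to 7.86. Jak1 was 9.16 on DMSO replicate b, against 9.31 to 9.36. Ptpn2 was 6.68 on DMSO replicate d, against 6.92 to 6.98.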

How the results depend on the processing

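Genes called between SP600125 and DMSO numbered 9351, against 5991 after quantile normalization and 5419 after cyclic loess, with rises making up 36.2% of calls as deposited, 25% after quantile normalization, 14.8% after median centring and 34.7% after cyclic loess. SOCS family calls numbered 3 as deposited, 6 after median centring and 0 within drug batch 1, which has 2 arrays per group. Genes called between batch 2 and batch 1 numbered 144, 297 after median centring, 270 without dim genes, 291 with an intensity trend and 32 without both b arrays, and from 26 to 203 when 1 array was left out, the lowest without SP600125 replicate a and the highest without SP600125 replicate b; the cause was not tested. Socs2 passed in 21 of 22 alternatives, from 0.55 to 0.85, failing within drug batch 1 (0.67), and from 0.70 to 0.74 with 1 array left out. Socs5 passed in 19, Socs7 in 12, Socs1 in 6, Socs4 and Socs6 in 1 each, and Socs3 and Cish in none. With the replicate letter as a replicate block, 8252 genes passed, and Socs7 did not (−0.23, limma adjusted p = 0.0612). Same-letter arrays correlated with r from −0.21 to 0.10 in their deviations from group means. These values cannot show whether same-letter arrays were paired, and the letters are used here as names of arrays. Leaving out both b arrays and adjusting over all probe sets were chosen after seeing the data; the adjustment over all probe sets ended the call of Socs7 (limma adjusted p = 0.058). Dim signal limits Socs1 most, at 5.50 against a mark of 5.43.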
